A study of Mus musculus with 6 samples.

Results

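The CaM kinase II family of the mouse consists of 4 genes, Camk2a, Camk2b, Camk2d and Camk2g, which encode the α, β, δ and γ kinase subunits. They were followed through the lists of alternative splicing and transcript-end events that the authors deposited for 6 RNA-seq libraries of the nucleus accumbens (NAc), the part of the ventral striatum that belongs to the reward circuit. The mice were adult C57BL/6N males trained in conditioned place preference (CPP), in which an animal learns to prefer the compartment where it received a drug. The morphine group (3 libraries) received intraperitoneal morphine on training sessions that alternated with saline sessions, and the saline group (3 libraries) was the saline-injected control. Tissue of both groups was taken after the CPP test, and the labels name no transgene or other agent. The members were chosen by name: every entry whose gene identifier is the GENCODE M21 identifier of a member was taken. This gave 297 of the 440199 entries. Included and skipped entries of the same exon or intron were merged into 1 event, identified by its class, gene, strand and position, which left 37 events of the family among 132823 events of 16154 genes. Camk2b had 12 of them, Camk2d 10, Camk2g 9 and Camk2a 6. All 4 genes were listed in all 6 libraries. An event list says that an alternative was assembled in a library and gives no level for it, so the values below are presences and counts, and an event missing from a list may still be present in the tissue.

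CaM kinase II is a calcium- and calmodulin-dependent protein kinase that assembles into large ring-shaped holoenzymes. Each subunit carries an N-terminal kinase domain, a regulatory segment that binds calmodulin and holds the autophosphorylation site that keeps the kinase active after calcium falls, a linker of variable length, and a C-terminal hub domain that joins the subunits. The kinase is among the most abundant proteins of excitatory synapses and is known for its part in long-term potentiation and in drug-related plasticity of the striatum. The α and β subunits prevail in neurons, while the δ and γ subunits are made in most tissues. The genes share their exon order, and their isoforms differ mostly in which exons of the linker are included. In the α, δ and γ genes a short linker exon encodes a nuclear localisation signal, and its inclusion gives the nuclear forms known as αB, δB and γA. The β linker binds actin filaments.

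The exons that vary in these libraries were read from the GENCODE M21 transcripts of GRCm38, on the strand of the gene and 5′ to 3′. The first set shows the nuclear localisation exons of Camk2d and Camk2g, since the same short exon was listed as variable in several members. Capitals mark the bases that both exons share.

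Camk2d 33-nt exon, chr3:126802937-126802969, plus strand: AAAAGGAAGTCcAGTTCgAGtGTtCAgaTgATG
Camk2g 33-nt exon, chr14:20747819-20747851, minus strand: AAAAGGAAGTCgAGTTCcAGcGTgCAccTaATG

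These exons had 26 of 33 bases in common (78.8%). The corresponding exon of Camk2a, also of 33 nt, had 28 of 33 bases in common with each of them (84.8%), and 25 bases were identical in all 3. Camk2b had no variable exon of this length.

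The second set shows the linker exons that lie downstream of this position in Camk2d, with the Camk2b exon that resembles one of them. In the Camk2d 42-nt exon and the Camk2b 45-nt exon, capitals mark the 27 of 42 bases (64.3%) that are identical when both are laid from their first base without a gap. The Camk2d 60-nt exon and the Camk2g 69-nt exon are shown as the other linker exons whose combinations are described below.

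Camk2b 45-nt exon, chr11:5981070-5981114, minus strand: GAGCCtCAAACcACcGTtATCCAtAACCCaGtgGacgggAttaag
Camk2d 42-nt exon, chr3:126808208-126808249, plus strand: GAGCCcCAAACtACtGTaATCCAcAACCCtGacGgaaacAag
Camk2d 60-nt exon, chr3:126805857-126805916, plus strand: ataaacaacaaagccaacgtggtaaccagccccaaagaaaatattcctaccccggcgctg
Camk2g 69-nt exon, chr14:20745792-20745860, minus strand: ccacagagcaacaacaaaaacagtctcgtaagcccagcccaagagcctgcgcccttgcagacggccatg

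The libraries listed between 67535 and 80469 entries and between 14243 and 14956 genes each. Relative sequencing depth, set to 1 in the shallowest library, ranged from 1 to 1.37 in the saline group and from 1.2 to 1.59 in the morphine group. Its part in the event counts was not tested. All 20 of 20 marker genes of medium spiny neurons, neurons in general, astrocytes, oligodendrocytes and microglia were listed in all 6 libraries, which includes the dopamine receptor genes Drd1 and Drd2. In bulk tissue, fewer cells of a type and less RNA per cell cannot be told apart. The sources differ on the animals behind a library: the series description counts more mice than samples per group, whereas a caption in the study names a separate mouse for every library. P-values give the share of all splits of these libraries whose group difference is at least as large as the observed one. The libraries are pools or single mice.

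Exon skipping was the largest class in the family's lists, with 19 of the 37 events, and 15 others were transcript starts or ends. Most exon skipping events were listed in all 6 libraries, but only 2 of the 8 of Camk2b were. Of the 37 events, 21 (56.8%) were listed in all 6 libraries, against 20.5% of the 132823 events of all genes. All 4 members were listed in all 6 libraries, as were 13183 of the 16154 genes. Events of the other genes cannot be in all 6, and the share among the 13183 genes alone was not computed. By class, 13 of the 19 exon skipping events of the members were in all 6 libraries (68.4%, against 19.7% for all genes), as were 8 of the 15 transcript starts and ends (53.3%, against 29.8%). None of the 3 intron retention events was, and no alternative exon end, that is a shifted splice site listed as such, was found for any member. These shares are descriptions, since events of a gene share its reads and its assembly. They differed between members: 8 of 10 events were in all 6 libraries for Camk2d, 6 of 9 for Camk2g, 4 of 6 for Camk2a and 3 of 12 for Camk2b. Events listed in a single library numbered 4 for Camk2b, 2 for Camk2g, 1 for Camk2a and 0 for Camk2d.

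**Figure D1:**
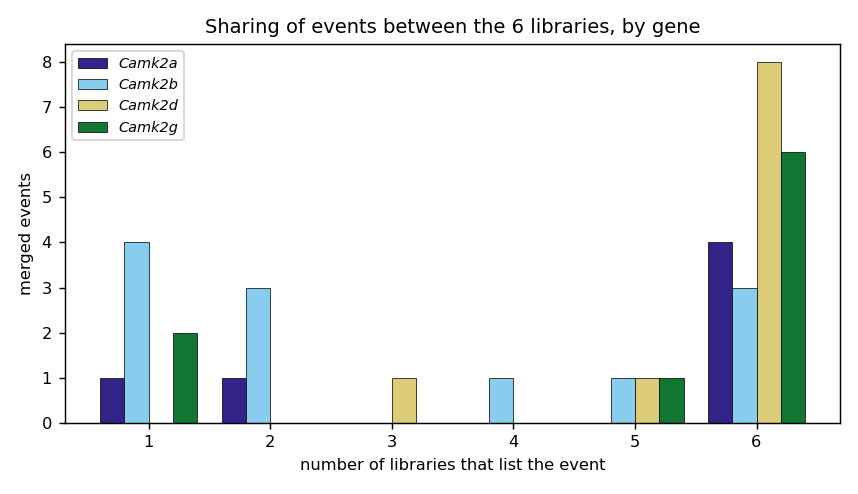
Number of merged events (y axis) by the number of libraries that list them (x axis), for each member. The bars at 6 libraries hold 8 events of Camk2d, 6 of Camk2g, 4 of Camk2a and 3 of Camk2b, and Camk2b has the most events at 1 and 2 libraries.

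The members vary in 14 exons of 33 to 129 nt, and 12 of these were listed as included in all 6 libraries. Camk2a has 1 of them, Camk2b 5, Camk2d 4 and Camk2g 4. Of the 14, 13 have a length that is a multiple of 3, so that their inclusion or skipping keeps the reading frame, and the exception lies near the C-terminal end of Camk2d. Counted as single skipped exons, the members had 13, of which 12 (92.3%) were multiples of 3. Among the 8834 single skipped exons of all genes the share was 51.2%, and among the 2135 of those listed in all 6 libraries it was 69.6%. The median length was 63 nt in the members, 104 nt over all genes and 87 nt among those listed in all 6 libraries. Exons of 33 nt were rare, with 76 over all genes, and 3 of the 76 were the nuclear localisation exons of Camk2a, Camk2d and Camk2g. All 13 exons of the members were annotated, against 80.8% over all genes and 96.2% among those listed in all 6 libraries.

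**Figure D2:**
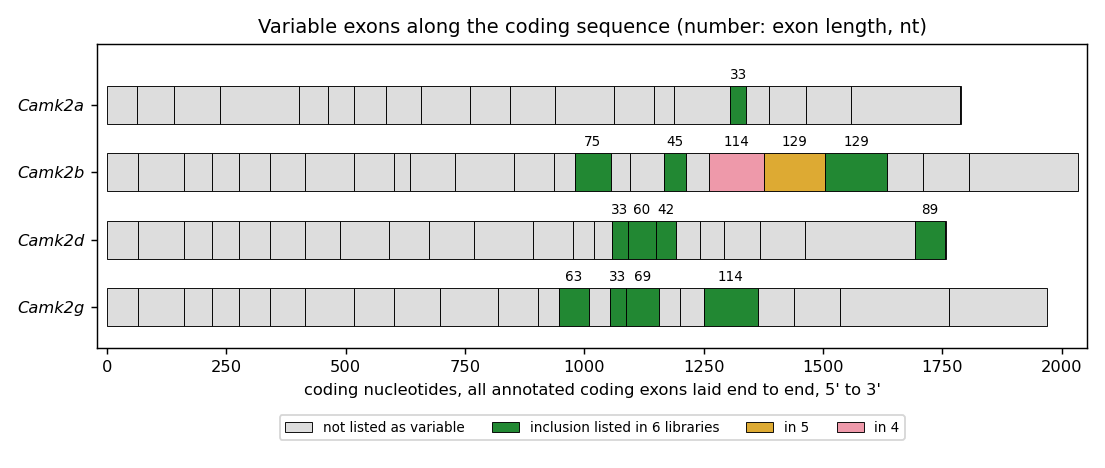
Coding exons of each member laid end to end, 5′ to 3′, to scale in nucleotides (x axis), with the exons that the lists give as variable in colour and their full lengths above. In Camk2b, Camk2d and Camk2g the variable exons lie close to each other, with the 89-nt exon at the end of Camk2d apart from the rest, and Camk2a has a single variable exon. The upstream of the 2 Camk2b 129-nt exons was included in 5 libraries and the 114-nt exon in 4, and the other exons in 6.

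Camk2d, which encodes the δ subunit known best from heart muscle, lies on chromosome 3 (126596302 to 126846326, plus strand, GRCm38). Of the members it had the largest share of merged events listed in all 6 libraries, 8 of 10. Between the exons that end at 126801761 and start at 126810639, it has the 33-nt, 60-nt and 42-nt exons printed above. Of the 8 possible combinations of these 3 exons, 5 were listed. A linker without any of them, the form known as δC, was listed in all 6 libraries. The 33-nt exon alone, which gives the nuclear δB form, was also listed in all 6, and so were the 60-nt and 42-nt exons together, which give δA, the neuronal form. The 60-nt exon alone was listed in all 6 as well. The 42-nt exon alone, known as δ9, was listed in saline libraries 1, 2 and 3 and in morphine library 3, and was missing from morphine libraries 1 and 2. Both groups thus listed this combination, and the share of all combinations with such a pattern was not computed. As a merged event, the 42-nt exon was listed in all 6 libraries. No combination joined the 33-nt exon with the 60-nt or 42-nt exon.

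Outside the linker, Camk2d had the 89-nt exon at 126841485 to 126841573, listed as included and as skipped in all 6 libraries. Its length is not a multiple of 3, only its first 64 nt are coding in the annotation, and in annotated coding transcripts that include it, it holds the stop codon, so that it sets their C-terminal tail. A transcript end with its splice side at 126841485, the start of this exon, and another at 126842758 were listed in all 6 libraries. The start of the full-length transcripts, with its splice side at 126597504, was likewise in all 6. An internal start in the 60-nt exon, which coincides with an annotated short transcript, was in 5 libraries and missing from saline library 2. A further internal start, with its splice side at 126798280, was in saline libraries 1 and 3 and morphine library 3.

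Camk2g, which encodes the γ subunit, lies on chromosome 14 (20734875 to 20794088, minus strand) and listed every form that its 33-nt and 69-nt exons allow. Between the exon edges 20755659 and 20744648 it has the 33-nt and 69-nt exons printed above. All 4 of the 4 possible combinations (none, the 33-nt exon, the 69-nt exon and both) were listed in all 6 libraries. Unlike in Camk2d, then, the nuclear localisation exon of Camk2g was listed together with the exon that follows it. A 63-nt exon at 20757666 to 20757728, upstream of these, and a 114-nt exon at 20741378 to 20741491, downstream, were also listed as included and skipped in all 6. The 63-nt exon had the highest GC content of the family's variable exons, 81.0%, and the Camk2a 33-nt exon the lowest, 39.4%.

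The Camk2g start, with its splice side at 20793901, was the same in all 6 libraries. Its annotated end, with its splice side at 20736852, was listed in 5 libraries. In saline library 1 the end listed under Camk2g lay instead at 20723739 to 20724360, inside the neighbouring gene Ndst2, which encodes a heparan sulphate modifying enzyme and lies on the same strand at 20723730 to 20734562. Saline library 1 also listed the only retained intron of Camk2g, 592 nt between the exon edges 20764268 and 20764861.

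Camk2b, which encodes the actin-binding β subunit, lies on chromosome 11 (5969644 to 6066362, minus strand) and had the list that varied most between libraries. Its 45-nt exon was listed as included and skipped in all 6 libraries. Its 75-nt exon, at 5987057 to 5987131, was also listed as included and skipped in all 6. In all 6 the skipping transcripts joined the next exon at 5982761, 3 nt away from the edge used by the transcripts that include it, 5982758. Saline libraries 2 and 3 listed a skipping transcript with the edge 5982758 too, which counts as a further event. Both edges are annotated.

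The Camk2b insert between the exon edges 5979673 and 5972888 holds the 114-nt exon, at 5978399 to 5978512, followed by 2 exons of 129 nt. Transcripts without the insert were listed in all 6 libraries. The full insert of 372 nt was listed in saline libraries 1 and 2 and in morphine libraries 1 and 3. The 258-nt form with both 129-nt exons was listed in morphine libraries 1 and 2, and the form with only the downstream 129-nt exon in saline libraries 2 and 3. Saline library 2, which listed several forms, thereby also listed the 114-nt exon and the upstream 129-nt exon as skipped together (relative to the form with the downstream 129-nt exon alone), and morphine library 1 the 114-nt exon as skipped alone. Each of these forms is an annotated transcript. Every library thus listed the insert in some form, and the forms listed differed between libraries within each group. Over all variable regions of the 4 genes, 26 exon combinations were listed, of which 21 were in all 6 libraries. The other 5 were the 3 forms of this insert, the skipping of the Camk2b 75-nt exon to the edge 5982758 and the Camk2d 42-nt exon alone.

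**Figure D3:**
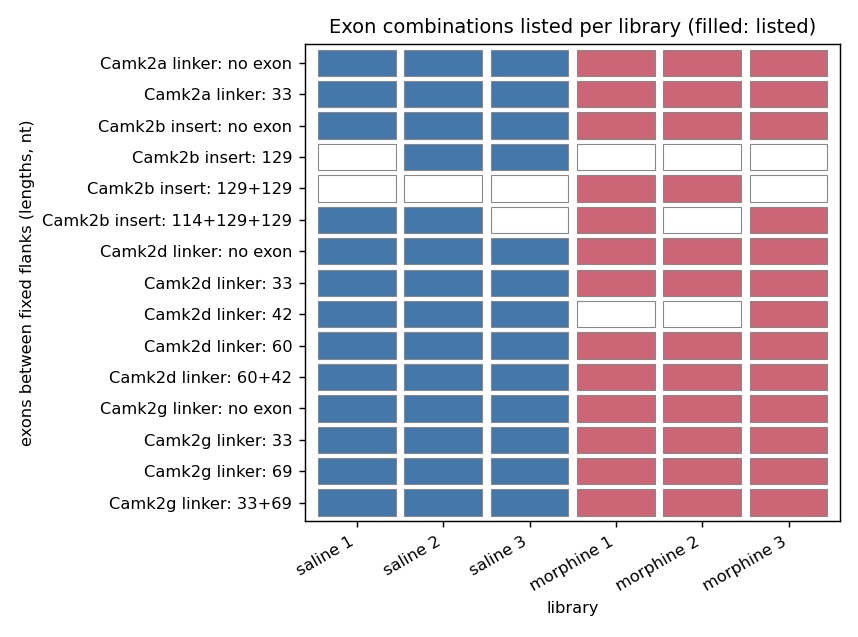
Exon combinations in the region of each gene with the most of them (rows, exon lengths in nucleotides) listed in each library (columns), with filled cells where the combination was listed, in blue for saline and in red for morphine. Of the 15 combinations in these regions, 11 are filled in all 6 libraries, and the 4 others are 3 forms of the Camk2b insert and the Camk2d 42-nt exon alone.

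Camk2b started at the splice side 6065474 in all 6 libraries and ended at 5971826 in 5. Morphine library 1 did not list that end. It listed instead a pair of ends on the opposite strand, with splice sides at 6048001 and 6048165, inside the gene and not annotated. These were the only 2 of the 37 events on the strand opposite to their gene.

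Camk2a, which encodes the α subunit that is most abundant in forebrain neurons, lies on chromosome 18 (60925618 to 60988152, plus strand) and had the shortest list. Its only variable exon was the 33-nt exon at 60969011 to 60969043, whose inclusion gives the nuclear αB form, and it was listed as included and as skipped in all 6 libraries. Besides its first start at 60925632, Camk2a had an internal start at 60963554, 37922 nt downstream, in all 6 libraries. An annotated short transcript starts at this position. From this part of the gene a product without kinase domain is made, known in muscle as αKAP. The end of the gene was likewise listed in all 6. Retained introns were listed for a 4247-nt intron (exon edges 60947045 and 60951293) in saline library 2 and morphine library 1, and for a 3179-nt intron (60952357 and 60955537) in morphine library 1.

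Across the family, the outermost position of a transcript start or end coincided with an annotated one for 12 of 19 positions (63.2%), against 33.6% of 107871 over all genes. The members also had more events than most genes. The median over the 13183 genes listed in all 6 libraries was 3.0 events per library. Camk2d had a mean of 9.33, with fewer events in 93.3% of these genes. Camk2g had 7.17 (88.2% of genes with fewer), Camk2b 6.17 (84.2%) and Camk2a 4.5 (72.0%).

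Morphine and saline libraries were compared to ask whether the family's splicing lists differed after morphine CPP training. No event of the 4 members was listed in all 3 libraries of one group and in none of the other. Over the events of all genes, 0.277% were listed in all 3 saline and no morphine libraries and 0.381% in all 3 morphine and no saline libraries, so that 0 of 37 is near what the background share gives. Of the 37 events, 27 were listed in both groups, 5 in saline libraries alone and 5 in morphine libraries alone. The share of all events listed in a single group was not computed, so these counts are no result about the members. Events in 1 library, which necessarily belong to a single group, made up 18.9% of the members' events and 50.5% of all events. Without saline library 1, 2 events would be listed in every remaining saline library and no morphine library. These are the Camk2b form with the downstream 129-nt exon alone, and the skipping of the Camk2b 75-nt exon to the edge 5982758. Without morphine library 3, 1 event, the 258-nt form with both 129-nt exons, would be listed in every remaining morphine library and no saline library. Transcripts without the insert were listed in all 6 libraries. The matching shares of all events with a library left out were not computed.

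The number of events per library did not separate the groups for any member. Camk2a had 4, 5 and 4 events in saline libraries 1 to 3 and 6, 4 and 4 in morphine libraries 1 to 3, which gives 4.33 ± 0.577 against 4.67 ± 1.15 (SD, n = 3 each). Camk2b had 5, 8 and 6 events against 8, 5 and 5, or 6.33 ± 1.53 against 6.0 ± 1.73. The high Camk2b counts were thus in saline library 2 and morphine library 1, and the groups overlapped. Camk2d had 10, 8 and 10 events against 9, 9 and 10, with a mean of 9.33 in both groups (SD 1.15 and 0.577). Camk2g had 8, 7 and 7 events against 7 in each morphine library (7.33 ± 0.577 against 7.0 ± 0.0).

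The 4 genes together had 27, 28 and 27 events in the saline libraries and 30, 25 and 26 in the morphine libraries. The morphine libraries were both the highest and the lowest, and the means were 27.3 ± 0.577 and 27.0 ± 2.65. The overlap rested on the 30 events of morphine library 1, since the other morphine counts, 25 and 26, lay below every saline count. How often genes show such a pattern with a library left out was not computed. Exon skipping events numbered 14, 17 and 15 against 16, 14 and 14, a difference of -0.667 (morphine minus saline, exact permutation test, two-sided, p = 0.7). Intron retention gave 1, 1 and 0 events against 2, 0 and 0. Transcript starts and ends gave 12, 10 and 12 against 12, 11 and 12. The p of the exact test was 1.0 for each of the other 8 counts and 1.0 after adjustment over the 9 counts for all of them. With 3 against 3 libraries the smallest p this test can give is 0.1, so it cannot pass 0.05, and the values per library carry the comparison. Over all genes, counts without overlap between the groups were found for 1.8% of genes with more events in morphine and 0.966% with more in saline, and 0 of the 4 members was among them.

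**Figure D4:**
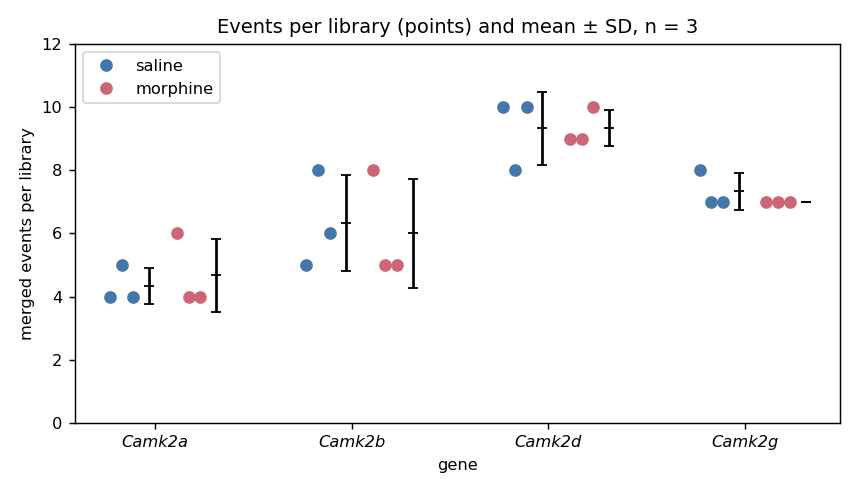
Merged events per library (y axis) for each member (x axis), with saline libraries in blue and morphine libraries in red, in the order 1 to 3 within a group, and the mean ± SD of 3 libraries in black. The groups overlap for every member, and Camk2b spans 5 to 8 events within each group.

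The genes around the kinase were described in the same way, with 28 genes of calcium/calmodulin signalling, all listed in all 6 libraries. The counts of 0 of the 28 were without overlap between the groups, in either direction, which at the shares of 1.8% and 0.966% over all genes is near the background and is no result about these genes. Camk2n1, which encodes an endogenous inhibitor of CaM kinase II, had 10 events and a range of 2 to 3 per library. Among the other CaM kinases Pnck and Camk4 had most, with 7 each, and among the calcineurin genes, which encode the opposing phosphatase, Ppp3cb had most, with 5. The longest list belonged to Lrrc7, which encodes densin-180, a postsynaptic scaffold that docks the kinase. Lrrc7 had 74 events over all libraries, with 8, 33 and 13 in the saline libraries and 33, 16 and 38 in the morphine libraries, and these overlapped. The calmodulin-binding proteins of the sponge type had 2 events in every library, and the most over all libraries were the 4 of Pcp4.

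Of the 261 events of this list, 1 was listed in all 3 saline and no morphine libraries and 1 in all 3 morphine and no saline libraries, which is near the shares of 0.277% and 0.381% over all events. They are named after their values were seen. The saline event was a start of Camk2n1 with its splice side at 138455351 on chromosome 4 (plus strand), at an annotated exon edge. It was keyed by this splice side, and the position of the start itself, 138454314, is the annotated start of the gene. The morphine event was an exon skipping event at an annotated 86-nt exon of Actn2, 12296475 to 12296560 on chromosome 13 (minus strand). Actn2 encodes α-actinin-2, an actin cross-linker that binds the kinase.

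Finally, the genes whose event counts were most like the summed count of the family over the 6 libraries were sought among the 212 genes with at least 10 events in every library. Pearson's r was 0.959 for Phldb1, 0.931 for Krit1 and 0.931 for Flna, the only 3 with r above 0.9. Phldb1 had 19, 21 and 18 events in the saline libraries and 23, 17 and 17 in the morphine libraries, with its highest count in morphine library 1, as in the family. These are descriptions over 6 libraries that share their depth and assembly, with no test.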

How the data were processed

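RNA of the NAc was sequenced in 6 libraries, 3 per group, with groups taken from the treatment label. Replicate numbers follow accession order and are names only. Per the study's methods, reads were mapped with HISAT2 and assembled with StringTie, and the genome build was not given in the sources used here. The event files deposited by the authors list events in the layout of ASprofile, with start and end positions. Their column called FPKM held only whole numbers from -25 to 0, and was not used as a level. The authors' deposited table of lncRNA read counts and FPKM values served only for relative depth, from 91 values with at least 10 counts, and its columns of the authors' own fold changes and p-values were not used. No per-sample column was left unused otherwise.

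The 20 types of event were grouped into 12 classes, and these into 4 families. Of a paired event, the included entry gave class, strand and position. A start or end was keyed by its splice-side position. Identifiers, exons and sequences came from GENCODE M21 on GRCm38, and positions count from 1. Event counts of the groups were set against each other with a two-sided exact permutation test and Benjamini-Hochberg adjustment over 9 counts. A group-specific event is one listed by every library of its own group and by no library of the other. The calls were tested on simulated data. All 4 members were named, with every annotated single skipped exon, the 3 genes most like the family in event counts, and the gene with most events of each subgroup of the signalling list except calmodulin, which is not reported here. The members and lists were chosen with earlier results of these data known. As alternatives, events were keyed by every deposited coordinate and the pattern, and the results were recomputed with own-strand events only, with counts per 10000 events of the library, and without each library in turn. Python 3.11.15, numpy 2.4.6, pandas 2.3.3 and matplotlib 3.10.9 were used.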

Additional observations from a re-analysis of the deposited data

How the results depend on the processing

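The differences below are morphine minus saline, in events per library. Of 97 recomputed values, 82 kept their direction or stayed within the spread between libraries, 10 changed sign and 5 moved. The 82 include the alternative exon ends, 0 in every library, which could not change. A difference that kept its sign counts among them whatever its size. None of the tests could pass the threshold in any setting, so the tests cannot show whether a result depends on the processing. The calls of group-specific events did change when a library was left out, as given below. The difference in transcript starts and ends was 0.333, and it was -0.333 when events on the opposite strand were left out, which removes the 2 opposite-strand ends of Camk2b in morphine library 1, and -0.0449 per 10000 listed events. With all coordinates and the pattern as key, the difference for Camk2d was -1.33 in place of 0.0. The combinations of its 60-nt and 42-nt exons then count apart, and the 42-nt exon alone was listed in 3 saline and 1 morphine libraries. The same key gave -2.0 in place of -0.667 for exon skipping, and -1.67 in place of -0.333 for the 4 genes together. The equal means of Camk2d thus depend on the merged key. Leaving out each library in turn gave differences of -0.333 to 0.667 for Camk2a, -1.33 to 0.5 for Camk2b, -0.667 to 0.333 for Camk2d, -0.5 to 0.0 for Camk2g, -1.83 to 0.667 for the 4 genes together, -1.33 to 0.167 for exon skipping, -0.667 to 0.333 for intron retention and -0.333 to 0.667 for transcript starts and ends. In the same settings, events listed in all saline and no morphine libraries ranged from 0 to 2 and those listed in all morphine and no saline libraries from 0 to 1. The other sign changes came with leaving out saline library 2 or morphine libraries 1, 2 or 3. No paired analysis was made, since the groups were different mice and the labels link no saline library to a morphine library. The total reads of each library were not analysed here, and the part of depth in the lists was not tested.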
